A study of Mus musculus with 8 samples.

Results

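Transcript levels of the cytosolic translation initiation and elongation factors were followed in 8 mouse heart samples. The members are the genes of the deposited expression table whose symbol begins with Eif or Eef and a digit, with Eif2s3x and Eif2s3y left out, which gave 63 of the 11704 genes. Of these, 60 averaged 1 FPKM or more and were tested. Eif2ak4, Eif5a2 and Eef1akmt4 were below that level and are given as values. Newborn mice had received adeno-associated virus of serotype 9 under the skin, and hearts were taken at 8 to 10 weeks of age. In 4 samples the virus carried mouse Fgf17 (AAV-FGF17), a secreted fibroblast growth factor, and in 4 it was the control vector. The promoter of the vector, the strain and the cargo of the control vector are not given in the sources used here. The columns carry the word sham while the sample labels name transduction alone, so whether the animals were operated on is unknown.

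Fgf17 stood at 90.8, 173, 69.0 and 123 FPKM in AAV-FGF17 samples 1 to 4 and at 9.59, 1.43, 0.560 and 9.86 FPKM in control samples 1 to 4. Every AAV-FGF17 sample lay above every control, and control samples 1 and 4 lay above control samples 2 and 3. FPKM counts fragments after division by transcript length and by all mapped fragments of the library. The heart markers were present, with 9 ventricular cardiomyocyte genes summing to at least 11947 FPKM in each sample. Control samples 2 and 3 stood apart from the other 6 samples. Mitochondrially encoded transcripts made up 44.5% and 30.9% of their FPKM sum, against 62.8% to 66.9% in the rest. Control samples 1 and 4 were the most similar pair of all 8 samples, with a robust SD of their log2 ratios of 0.0797 over 1404 genes. The part of the mitochondrial share, or of the Fgf17 level in the controls, in the levels below was not tested. The median gene of the table had a log2 change of -0.12 between the groups as fitted, and log2 changes are given relative to that median gene. The 2 groups were compared with limma on log2(FPKM + 1) over all 10025 tested genes, and each adjusted p below is Benjamini-Hochberg adjusted over that whole table.

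Protein synthesis starts when eIF2 brings the initiator tRNA to the small ribosomal subunit, which eIF3 and the small factors eIF1 and eIF1A hold ready for scanning. The eIF4F proteins recognise the cap of the mRNA and unwind its leader, and eIF5 and eIF5B complete the joining of the ribosome. During elongation eEF1A delivers aminoacyl-tRNAs, eEF1B recharges it with GTP, and eEF2 moves the ribosome along the mRNA. Heart muscle adjusts protein synthesis with load, largely by phosphorylation of eIF2, of the eIF4E-binding proteins and of eEF2, which transcript levels do not show.

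The elongation factors were the most abundant members. Eef1a2, the form of eEF1A made in muscle and neurons, had the highest mean of all 63 genes, at 303 ± 8.73 FPKM in AAV-FGF17 samples and 324 ± 37.0 FPKM in control samples (SD, n = 4 each). Its ubiquitous partner Eef1a1 followed, at 233 ± 29.4 FPKM in AAV-FGF17 samples and 245 ± 10.1 FPKM in controls. Eef1a2 exceeded Eef1a1 in 8 of 8 samples, and the ratio of these FPKM values was 1.32 ± 0.137 in AAV-FGF17 samples and 1.32 ± 0.113 in controls. Eef2, the translocase, came next. At the other end were Eef1akmt4, which encodes a lysine methyltransferase of eEF1A, with a mean over the 8 samples of 0.810 FPKM, Eif5a2 with 0.843 FPKM and the kinase gene Eif2ak4 with 0.907 FPKM.

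**Figure D1:**
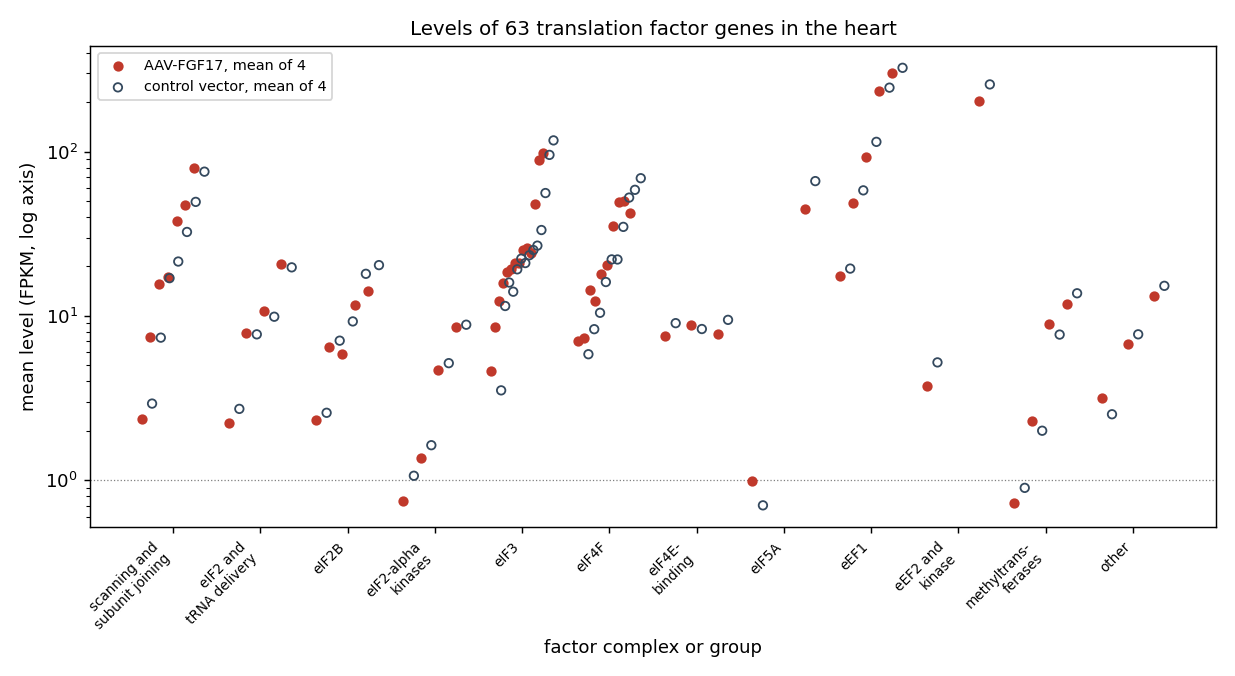
Mean FPKM (log axis) of the 63 factor genes by complex. Filled red points are means of the 4 AAV-FGF17 samples, open points to their right means of the 4 control samples, genes are ordered by overall mean within a complex, and the dotted line marks 1 FPKM. Eef1a2, Eef1a1 and Eef2 form the top of the plot, and Eef1akmt4, Eif5a2 and Eif2ak4 lie around the line.

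No factor gene passed the test. With limma, 0 of the 60 tested genes had an adjusted p under 0.05 in either direction, as was the case for 0 of all 10025 genes (0% called). Fgf17 itself was among the genes not called, although its groups did not overlap. It passed only without control sample 1, without control samples 2 and 3 together, or with array quality weights. The lack of a call therefore does not show that a factor gene was unchanged. The smallest adjusted p among the factor genes was 0.495, shared by several genes. At an unadjusted p under 0.05 there were 0 factor genes higher and 3 lower in AAV-FGF17 samples, namely Eif2b2, Eif2b4 and Eif4g1. That is 5% of them lower, against 7.98% lower and 1.36% higher among all tested genes. With median-of-ratios scaling of the libraries, the same count was 5 higher and 3 lower, against 4.28% higher and 4.06% lower among all genes. The groups did not overlap in 3 factor genes, each with all 4 AAV-FGF17 samples below all 4 controls, and in 0 genes the other way. This is again 5%, against 4.64% lower and 0.998% higher among all tested genes. Both shares of lower members were therefore close to the share in the table as a whole or under it.

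The median log2 change of the 60 genes was 0.00 relative to the median gene, with 30 genes above it and 30 below. It ran between complexes from -0.32 for eIF5A, of which 1 gene was tested, and -0.30 for the 5 genes of eIF2B to 0.17 for eIF2 and the alternative tRNA carriers and 0.26 for the methyltransferases. In bulk tissue, fewer cells of a type and less RNA per cell cannot be told apart. The median coefficient of variation over the factor genes was 8.12% in AAV-FGF17 samples and 18.7% in control samples. Among all tested genes these were 13.5% in AAV-FGF17 samples and 20.4% in controls.

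**Figure D2:**
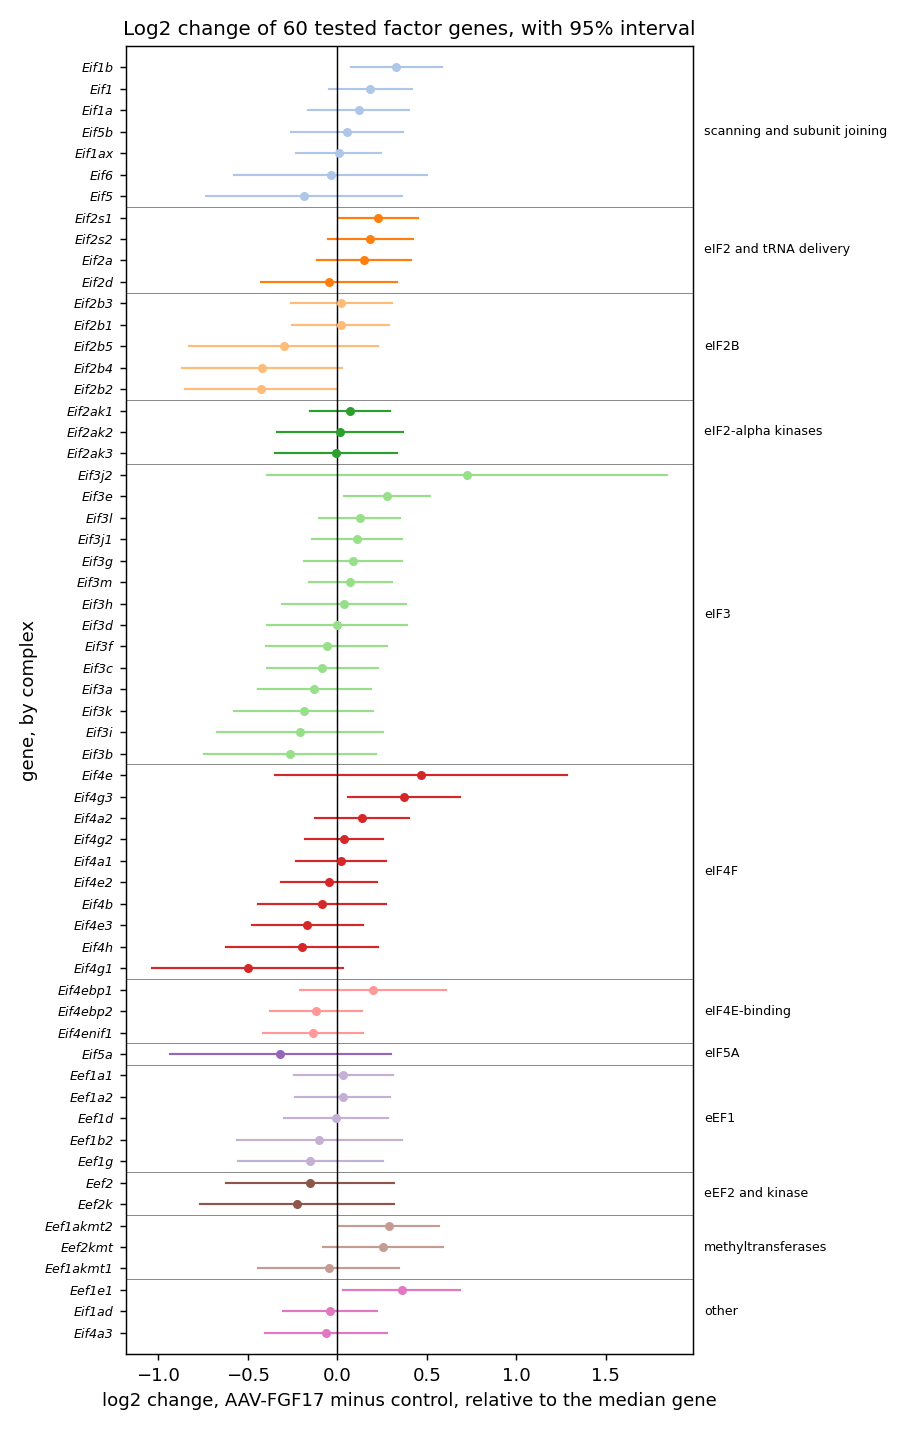
Log2 change of the 60 tested factor genes (AAV-FGF17 minus control, relative to the median gene, x axis) with the 95% interval of limma, by complex. Each interval is shifted with its change by the value of the median gene. Whether an interval crosses the line therefore does not show the limma test, which is of the change as fitted against 0. Eif4g1 has the lowest change at -0.50 and Eif3j2 the highest at 0.72, Eif3j2 and Eif4e have the widest intervals, and 30 genes lie on each side of the line.

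None of the 7 factors of start-codon scanning and subunit joining passed the limma test. Eif1, which keeps the scanning ribosome from starting at a wrong codon and was the most abundant gene of this set, stood at 79.4 ± 7.39 FPKM in AAV-FGF17 samples and 75.5 ± 2.75 FPKM in controls. Eif1b, its close relative, measured 36.4, 41.0, 32.0 and 42.4 FPKM in AAV-FGF17 samples 1 to 4, against 31.3, 31.0, 33.2 and 34.2 FPKM in control samples 1 to 4. AAV-FGF17 sample 3 lay among the controls and the other 3 lay above them, with a log2 change of 0.33 ± 0.11 (SE, limma adjusted p = 0.496). Eif1 had a log2 change of 0.19 ± 0.10. The X-linked Eif1ax stood at 15.6 ± 0.568 FPKM in AAV-FGF17 samples and 16.97 ± 1.97 FPKM in controls.

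Eif5, the GTPase-activating protein of eIF2, did not follow the groups. It measured 14.9, 13.02, 25.9 and 15.2 FPKM in AAV-FGF17 samples and 26.2, 13.7, 20.2 and 25.7 FPKM in control samples. Both groups held low and high samples, and the groups overlapped. The gene has 17 annotated transcripts. Eif5b, the GTPase of subunit joining, stood at 47.2 ± 6.65 FPKM in AAV-FGF17 samples and 49.4 ± 7.54 FPKM in controls, and Eif6, which keeps free large subunits apart, at 2.36 ± 0.430 FPKM in AAV-FGF17 samples and 2.92 ± 1.59 FPKM in controls.

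The log2 changes of the 2 eIF2 subunit genes among the members, Eif2s1 and Eif2s2, lay above the median gene. Eif2s1 encodes the alpha subunit, the target of the stress kinases, and measured 10.8, 9.74, 10.7 and 11.8 FPKM in AAV-FGF17 samples and 9.66, 10.4, 9.48 and 10.0 FPKM in controls. AAV-FGF17 sample 2 lay among the controls and the other 3 samples above them (log2 change 0.23 ± 0.10 (SE), limma adjusted p = 0.601). Eif2s1 was among the 3 factor genes, with Eif3e and Eif4g3, whose AAV-FGF17 samples all lay above all controls once libraries were scaled by median of ratios. Under that scaling Eif2b2 and Eif4g1 lay wholly below the controls, and 2.77% of all tested genes were higher and 2.56% lower without overlap. The beta subunit Eif2s2 stood at 20.8 ± 1.89 FPKM in AAV-FGF17 samples and 19.7 ± 1.52 FPKM in controls (log2 change 0.19 ± 0.11). Its ratio to Eif2s1 was 1.93 ± 0.185 in AAV-FGF17 samples and 1.996 ± 0.0847 in controls, and Eif2d, a factor that can deliver tRNA without eIF2, stood at 2.24 ± 0.0610 FPKM in AAV-FGF17 samples and 2.72 ± 0.922 FPKM in controls.

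The genes of eIF2B, the exchange factor that reloads eIF2 with GTP and on which the stress response converges, held 2 of the 3 factor genes at an unadjusted p under 0.05. Eif2b2 encodes the beta subunit (ENSMUSG00000004788.11, chr12:85219481-85226628, plus strand, GRCm38) and measured 6.05, 4.87, 6.52 and 5.94 FPKM in AAV-FGF17 samples and 6.92, 9.69, 13.3 and 7.08 FPKM in controls. Every AAV-FGF17 sample lay below every control, while control samples 2 and 3 lay well above control samples 1 and 4. The log2 change was -0.43 ± 0.19 (SE, limma adjusted p = 0.495, two-sided exact permutation p = 0.0286, the smallest that 4 against 4 allows, with 63 genes so compared). Without control samples 2 and 3 it was -0.21, and over all settings tried its limma adjusted p lay between 0.290 and 0.932. The groups stayed apart with median-of-ratios scaling, after rescaling without mitochondrial genes and after GC adjustment. Leaving out samples cannot make separate groups overlap, so those settings do not bear on this.

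The delta and epsilon subunits had the same shape in the controls. Eif2b4 measured 10.4, 13.5, 11.4 and 11.5 FPKM in AAV-FGF17 samples and 12.6, 23.98, 21.8 and 13.7 FPKM in controls. AAV-FGF17 sample 2 lay between control samples 1 and 4, and control samples 2 and 3 were highest (log2 change -0.42 ± 0.20 (SE), limma adjusted p = 0.495). Eif2b5, which carries the catalytic domain, measured 14.0, 13.5, 14.1 and 14.9 FPKM in AAV-FGF17 samples and 13.3, 23.2, 31.0 and 14.0 FPKM in controls. Here control samples 1 and 4 lay within or below the AAV-FGF17 range, and the log2 change of -0.30 ± 0.24 turned to 0.07 without control samples 2 and 3. Eif2b1, the alpha subunit, stood at 6.48 ± 0.267 FPKM in AAV-FGF17 samples and 7.06 ± 1.11 FPKM in controls, and Eif2b3, the gamma subunit, at 2.33 ± 0.294 FPKM in AAV-FGF17 samples and 2.57 ± 0.438 FPKM in controls. The 5 genes together summed to 39.5, 40.4, 40.6 and 41.5 FPKM in AAV-FGF17 samples and to 43.0, 67.8, 75.5 and 42.8 FPKM in control samples, so that 2 controls lay near the AAV-FGF17 samples and 2 far above.

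**Figure D3:**
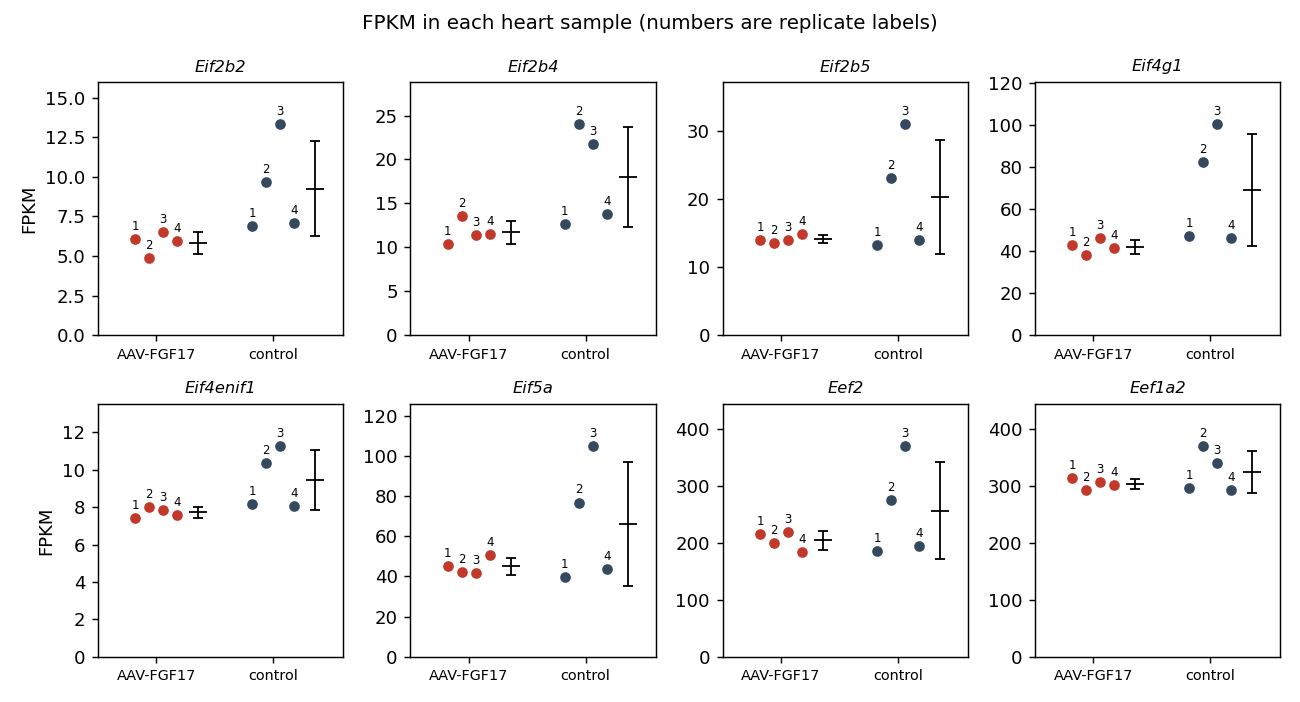
FPKM of 8 factor genes in each sample, AAV-FGF17 in red and control in dark grey, with replicate numbers beside the points and the mean ± SD of the 4 samples in black. For Eif2b2, Eif4g1 and Eif4enif1 all AAV-FGF17 points lie below all control points, and in every panel control samples 2 and 3 are the highest points.

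Promoter windows are shown for Eif2b2 and Eif4g1, the genes whose groups stayed apart under the other scalings and the GC adjustment, and for Eef2, an abundant factor. For Eif4g1 the RefSeq start lies inside the deposited gene span. The windows come from RefSeq on GRCm38.p6 and run 5′ to 3′ from 120 bases before the annotated start to its base 30. Capitals mark CACGTG, the E-box bound by Myc-type factors, and CGGAAG or its reverse complement CTTCCG, the core bound by ETS factors. The 3 windows lie on the plus strand at chr12:85219361-85219510, chr16:20672607-20672756 and chr10:81176511-81176660.
Eif2b2: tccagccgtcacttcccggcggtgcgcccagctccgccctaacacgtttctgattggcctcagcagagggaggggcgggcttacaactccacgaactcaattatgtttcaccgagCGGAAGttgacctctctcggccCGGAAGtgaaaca
Eif4g1: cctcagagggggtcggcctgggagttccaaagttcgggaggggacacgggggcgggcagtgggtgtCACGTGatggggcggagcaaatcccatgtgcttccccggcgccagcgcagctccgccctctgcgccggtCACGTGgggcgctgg
Eef2: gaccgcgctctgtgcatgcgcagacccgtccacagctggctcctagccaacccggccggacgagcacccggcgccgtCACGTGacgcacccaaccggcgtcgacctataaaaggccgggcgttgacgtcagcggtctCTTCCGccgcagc

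The Eif2b2 window held 2 ETS cores and 0 E-boxes, that of Eif4g1 2 E-boxes and 0 ETS cores, and that of Eef2 1 of each. In windows of 300 bases the RefSeq promoter set held 50 of the 63 factor genes. CACGTG, which reads the same on both strands, was present in 13 of these (26%), against 8.09% of all 27025 genes of that promoter set. CGGAAG on either strand was present in 28 (56%) against 18.8%. The promoter set is not limited to genes of the expression table, so these shares do not compare the factor genes with other expressed genes. No 2 matches overlap in the printed windows, and the motifs were chosen after the expression values were seen. A match describes the letters and not binding.

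None of the 3 tested eIF2-alpha kinases, which shut down initiation under stress, passed the limma test. Eif2ak1, the haem-regulated kinase, was the most abundant, at 8.51 ± 0.262 FPKM in AAV-FGF17 samples and 8.84 ± 0.746 FPKM in controls. The double-stranded RNA sensor Eif2ak2 stood at 4.70 ± 0.744 FPKM in AAV-FGF17 samples and 5.15 ± 1.12 FPKM in controls, and Eif2ak3, the kinase of the endoplasmic reticulum, at 1.37 ± 0.108 FPKM in AAV-FGF17 samples and 1.63 ± 0.562 FPKM in controls. Log2 changes of the 3 tested kinases lay between -0.01 and 0.07. Eif2ak4, the sensor of amino acid shortage, was low at 0.750 ± 0.224 FPKM in AAV-FGF17 samples and 1.06 ± 0.221 FPKM in controls, with AAV-FGF17 samples 1 and 3 (0.824 and 1.016 FPKM) among the controls.

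The 14 eIF3 genes covered a wide range of levels in each sample. Eif3a, the scaffold subunit, and Eif3h were highest, with Eif3a at 97.7 ± 8.51 FPKM in AAV-FGF17 samples and 117 ± 21.04 FPKM in controls and Eif3h at 89.3 ± 9.68 FPKM in AAV-FGF17 samples and 95.6 ± 19.0 FPKM in controls. Eif3i, a subunit of the core, stood at 8.60 ± 0.702 FPKM in AAV-FGF17 samples and 11.5 ± 4.01 FPKM in controls. Of the 14, 7 lay above the median gene and 7 below. Summed over the complex, the level was 428, 403, 434 and 460 FPKM in AAV-FGF17 samples and 412, 534, 574 and 418 FPKM in control samples, with control samples 1 and 4 inside the AAV-FGF17 range and control samples 2 and 3 above it. The 3 eIF3 genes of smallest p repeated this. Eif3b, a scaffold subunit, measured 25.2, 22.7, 24.2 and 24.6 FPKM in AAV-FGF17 samples and 23.4, 34.9, 50.5 and 24.5 FPKM in controls (log2 change -0.26 ± 0.22 (SE), limma adjusted p = 0.496). Without control samples 2 and 3 its log2 change was 0.03, and that of Eif3k, a subunit at the edge of the complex, was 0.04 against -0.19 with them. Eif3a kept a log2 change of the same sign, -0.13 with them and -0.03 without them.

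Control samples 2 and 3 were the 2 highest samples in 9 of the 14 eIF3 genes (64.3%), against 36.0% of all tested genes. This was not so in Eif3e, Eif3j1, Eif3j2, Eif3l and Eif3m. Eif3e measured 15.8, 15.9, 14.8 and 16.6 FPKM in AAV-FGF17 samples and 14.3, 15.6, 12.02 and 14.2 FPKM in controls, with control sample 3 the lowest of all. Eif3l stood at 25.3 ± 1.54 FPKM in AAV-FGF17 samples and 25.2 ± 1.92 FPKM in controls and Eif3m at 25.8 ± 1.08 FPKM in AAV-FGF17 samples and 26.8 ± 2.74 FPKM in controls. Eif3j2 stood at 4.45 to 4.77 FPKM in AAV-FGF17 samples and at 4.21, 4.82 and 5.05 FPKM in control samples 1, 2 and 4, and was listed at 0 in control sample 3. Its log2 change of 0.72 ± 0.50 (SE, limma adjusted p = 0.574), the highest of the 60, came to 0.06 without control sample 3 and 0.02 without control samples 2 and 3. With a pseudocount of 0.1 in place of 1 it was 1.51, so its size depends on the pseudocount. Eif3j1 and Eif3j2 encode near-identical proteins, so the division of reads between them is uncertain.

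In the cap-binding set, Eif4g1, the large scaffold of eIF4F (ENSMUSG00000045983.15, chr16:20668313-20692884, plus strand), gave the lowest log2 change of all 60 genes. It measured 42.8, 38.1, 46.1 and 41.4 FPKM in AAV-FGF17 samples and 47.0, 82.2, 100 and 46.3 FPKM in control samples. The groups did not overlap, though AAV-FGF17 sample 3 and control sample 4 were within 1% of each other, at 46.10 and 46.26 FPKM. The log2 change was -0.50 ± 0.24 (SE, limma adjusted p = 0.495, two-sided exact permutation p = 0.0286), and -0.13 without control samples 2 and 3. The groups stayed apart under both other scalings and the GC adjustment. Eif4g1 lies on chromosome 16 with Eif2b5 and Eef1akmt4, all 3 within chr16:20498817-20692884. Of these neighbours, Eif2b5 was highest in control samples 2 and 3 as well, while Eef1akmt4 stood at 0.722 ± 0.0895 FPKM in AAV-FGF17 samples and 0.897 ± 0.0994 FPKM in controls.

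Eif4g3, a paralogue of Eif4g1, lay on the other side of the median gene. It measured 7.71, 6.60, 7.39 and 6.61 FPKM in AAV-FGF17 samples and 6.404, 4.91, 7.29 and 4.76 FPKM in controls, with control sample 3 alone reaching into the AAV-FGF17 range (log2 change 0.37 ± 0.14 (SE), limma adjusted p = 0.496). The ratio of Eif4g1 to Eif4g3 was 5.56, 5.77, 6.24 and 6.27 in AAV-FGF17 samples and 7.34, 16.7, 13.7 and 9.71 in control samples. All 4 AAV-FGF17 ratios lay below all 4 control ratios, in a comparison picked after the values were seen and therefore not tested. Eif4g2, a scaffold that does not bind eIF4E, stood at 49.6 ± 2.89 FPKM in AAV-FGF17 samples and 52.5 ± 2.97 FPKM in controls.

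Among the other cap-binding factors the helicase gene Eif4a2 exceeded Eif4a1 in 8 of 8 samples, with Eif4a2 at 35.1 ± 1.97 FPKM in AAV-FGF17 samples and 34.8 ± 4.89 FPKM in controls and Eif4a1 at 20.5 ± 1.15 FPKM in AAV-FGF17 samples and 22.1 ± 2.69 FPKM in controls. The ratio of Eif4a2 to Eif4a1 was 1.72 ± 0.156 in AAV-FGF17 samples and 1.58 ± 0.149 in controls. Eif4e, the cap-binding protein itself, varied within both groups, at 17.6, 5.4, 15.6 and 18.6 FPKM in AAV-FGF17 samples and 5.69, 10.8, 12.2 and 13.1 FPKM in controls. AAV-FGF17 samples 1, 3 and 4 lay above all controls, and AAV-FGF17 sample 2 lay below them. AAV-FGF17 sample 2 and control sample 1 were far below the rest of their groups, and the log2 change was 0.47 ± 0.37 (SE, limma adjusted p = 0.647). It was 0.81 without AAV-FGF17 sample 2, 0.31 without AAV-FGF17 sample 4 and 0.26 without control sample 1. Eif4e3, a further member of the eIF4E family, stood at 18.1 ± 3.32 FPKM in AAV-FGF17 samples and 22.1 ± 2.18 FPKM in controls (log2 change -0.17 ± 0.14 (SE), limma adjusted p = 0.495). Eif4b and Eif4h, which stimulate the helicase, stood at 49.9 ± 4.85 FPKM in AAV-FGF17 samples and 58.6 ± 12.9 FPKM in controls and at 12.3 ± 0.282 FPKM in AAV-FGF17 samples and 16.1 ± 5.45 FPKM in controls.

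Of the genes whose products bind eIF4E and hold it from the scaffold, Eif4ebp2 measured 8.26, 6.77, 8.45 and 6.67 FPKM in AAV-FGF17 samples and 8.86, 9.42, 9.64 and 8.20 FPKM in controls. AAV-FGF17 samples 1 and 3 reached above the lowest control, and the log2 change was -0.12 ± 0.12 (SE, limma adjusted p = 0.495). Eif4ebp1 measured 11.01, 8.46, 6.72 and 9.03 FPKM in AAV-FGF17 samples and 6.95, 9.08, 10.9 and 6.396 FPKM in controls, with overlapping groups. Eif4enif1, a transporter that takes eIF4E into the nucleus, also had separate groups, at 7.39, 8.03, 7.85 and 7.57 FPKM in AAV-FGF17 samples and 8.16, 10.4, 11.2 and 8.07 FPKM in controls. Its gap was narrow, with a log2 change of -0.13 ± 0.13 (SE, limma adjusted p = 0.495). The groups overlapped under both other scalings and the GC adjustment.

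Eif5a, which helps ribosomes past stretches that are hard to translate, had a wide split within the controls. It measured 45.4, 42.2, 41.9 and 50.7 FPKM in AAV-FGF17 samples and 39.5, 76.8, 105 and 43.5 FPKM in control samples. Control samples 1 and 4 lay within or below the AAV-FGF17 range and control samples 2 and 3 far above it. The log2 change of -0.32 ± 0.28 (SE, limma adjusted p = 0.513) turned to 0.13 without those samples. Eif5a2, its rarely expressed paralogue, measured 1.204, 0.878, 1.08 and 0.778 FPKM in AAV-FGF17 samples and 0.697, 0.666, 0.519 and 0.926 FPKM in controls, where control sample 4 lay within the AAV-FGF17 range.

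In the elongation machinery the same samples stood out for eEF2 and eEF1B and less for eEF1A. Eef2 measured 215, 200, 220 and 183 FPKM in AAV-FGF17 samples and 186, 276, 370 and 195 FPKM in controls, where control samples 1 and 4 lay inside the AAV-FGF17 range (log2 change -0.15 ± 0.21 (SE), limma adjusted p = 0.553). Without control samples 2 and 3 its log2 change was 0.12. Eef2k, the kinase that inactivates eEF2, stood at 3.72 ± 0.821 FPKM in AAV-FGF17 samples and 5.21 ± 2.25 FPKM in controls, with log2 changes of -0.22 with and 0.09 without those samples. Eef1g, the gamma subunit of the exchange factor, measured 91.7, 89.0, 91.5 and 97.8 FPKM in AAV-FGF17 samples and 87.6, 144, 140 and 87.9 FPKM in controls (log2 change -0.15 ± 0.18, and 0.10 without control samples 2 and 3). Eef1b2, its catalytic alpha subunit, stood at 48.4 ± 6.502 FPKM in AAV-FGF17 samples and 58.1 ± 17.3 FPKM in controls and Eef1d, the delta subunit, at 17.5 ± 0.819 FPKM in AAV-FGF17 samples and 19.4 ± 3.40 FPKM in controls. Eef1a2 measured 313, 292, 307 and 301 FPKM in AAV-FGF17 samples and 296, 369, 339 and 292 FPKM in controls, with a log2 change of 0.03 ± 0.12.

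The enzymes that methylate the elongation factors, and the genes that carry a factor's name but act elsewhere, overlapped between the groups where tested. Eef1akmt1, a lysine methyltransferase of eEF1A, stood at 11.8 ± 0.947 FPKM in AAV-FGF17 samples and 13.7 ± 3.84 FPKM in controls, and Eef1akmt2, another, at 8.86 ± 1.48 FPKM in AAV-FGF17 samples and 7.69 ± 0.448 FPKM in controls (log2 change 0.29 ± 0.13 (SE), limma adjusted p = 0.541). Eef2kmt, which methylates eEF2, stood at 2.29 ± 0.418 FPKM in AAV-FGF17 samples and 1.999 ± 0.470 FPKM in controls. Eef1e1, a subunit of the tRNA synthetase complex, measured 2.54, 3.39, 2.76 and 4.0 FPKM in AAV-FGF17 samples and 2.29, 2.54, 2.09 and 3.15 FPKM in controls (log2 change 0.36 ± 0.15 (SE), limma adjusted p = 0.505). Eif4a3, a core protein of the exon junction complex, stood at 13.1 ± 1.21 FPKM in AAV-FGF17 samples and 15.2 ± 3.25 FPKM in controls, and Eif1ad at 6.77 ± 0.349 FPKM in AAV-FGF17 samples and 7.72 ± 1.13 FPKM in controls.

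**Figure D4:**
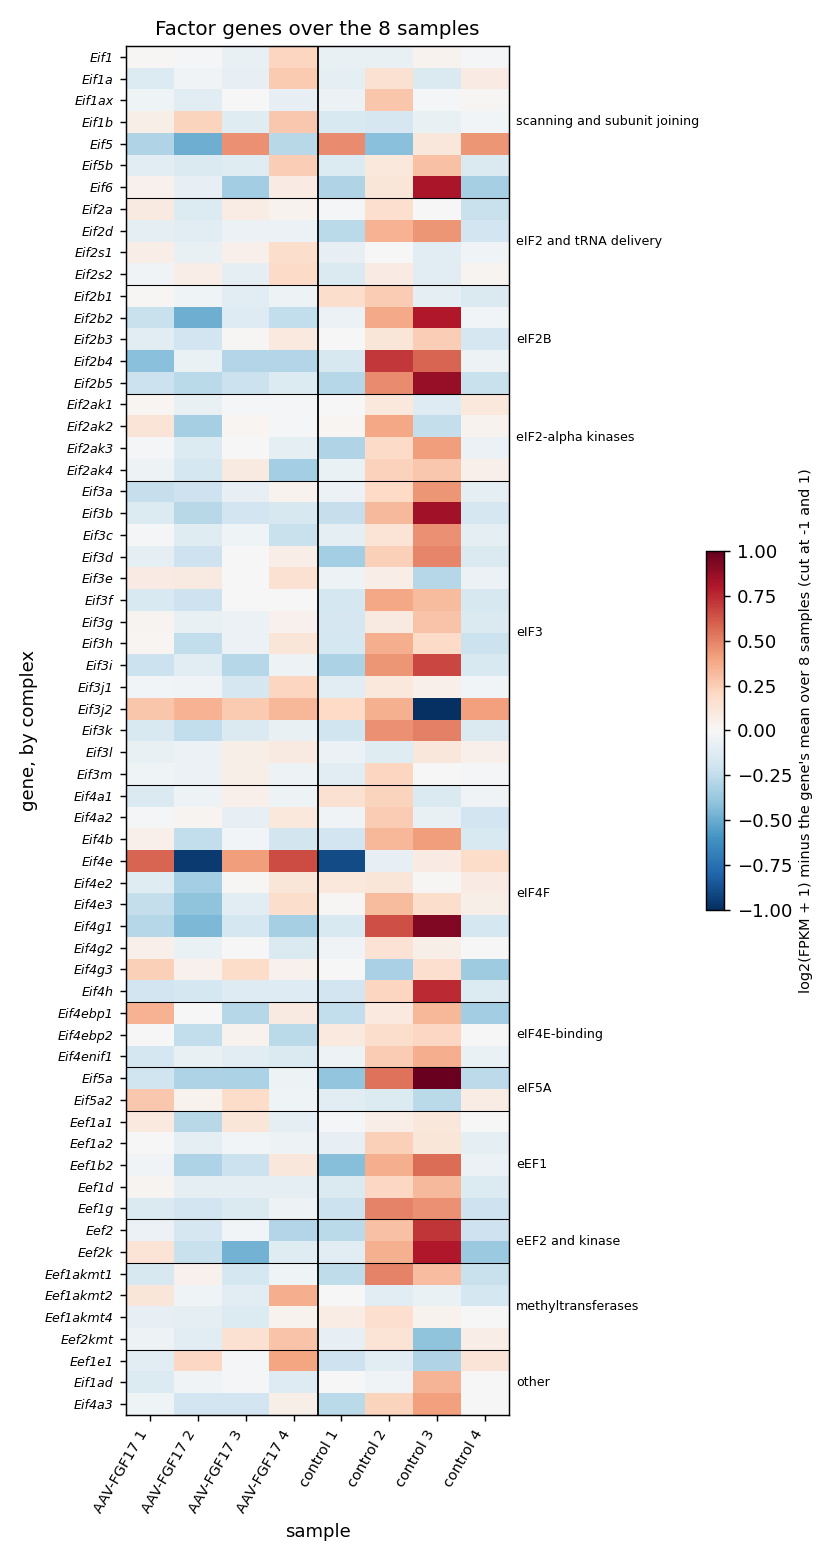
Log2(FPKM + 1) of the 63 factor genes minus each gene's mean over the 8 samples, rows by complex, with the 4 AAV-FGF17 samples left of the 4 control samples. Colours are cut at -1 and 1. Control columns 2 and 3 are red in most rows, with 51 and 44 of the 60 tested genes above their own mean. These are 85% and 73.3%, against 69.7% and 68.9% of all tested genes. Eif5 and Eif4e vary widely within both groups.

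Over the whole family, control samples 2 and 3 were the 2 highest of the 8 samples in 32 of the 60 tested factor genes (53.3%), against 36.0% of all tested genes. The number of factor genes above their own mean over the 8 samples was 23, 9, 18 and 28 in AAV-FGF17 samples 1 to 4 and 12, 51, 44 and 15 in control samples 1 to 4. As shares these were 38.3%, 15%, 30% and 46.7% in AAV-FGF17 samples and 20%, 85%, 73.3% and 25% in control samples. Among all tested genes the shares moved in the same samples, at 44.4%, 20.1%, 48.6% and 42.6% in AAV-FGF17 samples and 41.1%, 69.7%, 68.9% and 44.4% in control samples. Without control samples 2 and 3, the median log2 change of the 60 genes was 0.09 relative to the median gene, against 0.00 with them. In that setting 1 factor gene was higher and 1 lower at an unadjusted p under 0.05, against 2.24% higher and 2.39% lower among all tested genes. With 4 against 2 samples the groups did not overlap in 7 factor genes that were higher and 4 that were lower, against 6.33% higher and 9.39% lower among all tested genes.

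Transcript base composition went with this split. GC content, taken from the longest coding transcript, ran from 39.7% in Eif1ax to 60.6% in Eef1a2 among the 60 genes. Of the 31 genes with at least 50% GC, control samples 2 and 3 were highest in 25, and of the 29 genes under 50% GC in 7, a limit set after the values were seen. Across the 60 genes the Spearman correlation of GC content with a gene's deviation from its own mean was -0.27, -0.23, -0.41 and -0.44 in AAV-FGF17 samples 1 to 4. In control samples 1 to 4 it was -0.45, 0.34, 0.66 and -0.40. Across 10013 genes of the table it was -0.33 to -0.13 in AAV-FGF17 samples and -0.24, 0.18, 0.61 and -0.31 in control samples 1 to 4. Genes within a sample share its library, and the 8 deviations of a gene sum to zero, so these values are a description.

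**Figure D5:**
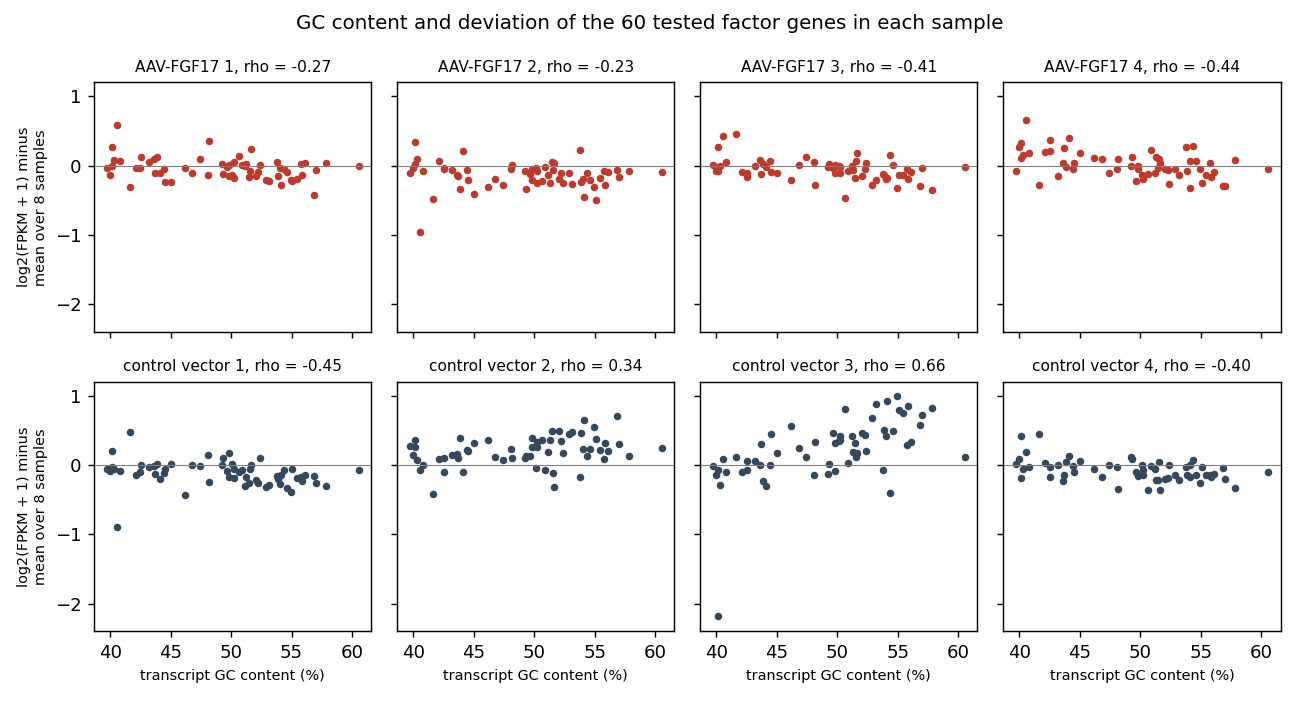
Deviation of log2(FPKM + 1) from the gene's mean over the 8 samples (y axis) against transcript GC content in percent (x axis) for the 60 tested factor genes, 1 panel per sample, AAV-FGF17 above and control below. The cloud slopes up in control samples 2 and 3 (rho 0.34 and 0.66) and down in the other 6 samples.

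Some marker sums were also highest in control samples 2 and 3, and others were not. The 9 ventricular markers summed to 12059 to 13067 FPKM in AAV-FGF17 samples and to 12267, 20169, 25595 and 11947 FPKM in control samples 1 to 4. The 5 endothelial markers summed to 86.3 to 115 FPKM in AAV-FGF17 samples and to 116, 153, 145 and 117 FPKM in control samples 1 to 4, without overlap. The gap was narrow, from 114.8 FPKM in AAV-FGF17 sample 4 to 115.8 FPKM in control sample 1. Pecam1 and Cdh5 had separate groups, while those of Kdr, Tie1 and Egfl7 overlapped. The 5 atrial markers summed to 1882, 563, 1848 and 851 FPKM in AAV-FGF17 samples and to 2209, 1389, 3038 and 2228 FPKM in control samples, and the 5 white adipocyte markers to 46.3 to 189 FPKM in AAV-FGF17 samples and to 158, 128, 321 and 161 FPKM in control samples. In both of these sets control sample 2 was the lowest control and control sample 3 the highest. Of 8 listed skeletal muscle markers 4 were in the expression table, while Myh1, Myh2, Myh4 and Actn3 were absent. The 4 summed to 329, 301, 334 and 666 FPKM in AAV-FGF17 samples and to 313, 613, 580 and 313 FPKM in control samples, with AAV-FGF17 sample 4 highest. Most of each sum was Ckm and Acta1, and Mylpf and Tnnt3 had means under 1 FPKM in both groups. The 5 brown adipocyte markers summed to 545 to 679 FPKM in AAV-FGF17 samples and to 636, 970, 902 and 631 FPKM in control samples, most of it Cox7a1, a respiratory chain subunit that heart also makes. Ucp1, the defining brown fat uncoupler, stood at 0.527 to 7.93 FPKM in AAV-FGF17 samples and at 14.6, 11.9, 12.2 and 15.7 FPKM in control samples, where control samples 2 and 3 were the lowest controls. In Ucp1, Cidea and Pparg every AAV-FGF17 sample lay below every control. The 6 fibroblast markers summed to 132 to 159 FPKM in AAV-FGF17 samples and to 132 to 159 FPKM in controls, but their members ran in opposite directions. Dcn, a matrix proteoglycan, stood at 97.5 to 116 FPKM in AAV-FGF17 samples and at 68.7 to 91.9 FPKM in controls without overlap, while the collagen genes Col1a1, Col1a2 and Col3a1 were highest in control samples 2 and 3. These marker genes were singled out after their values were seen. The 5 macrophage markers summed to 26.0 to 50.2 FPKM in AAV-FGF17 samples and to 33.1 to 38.9 FPKM in controls. The part of these marker levels in the levels of the factor genes was not tested. After each library was adjusted for GC content, the log2 change of Eif2b2 was -0.34, that of Eif4g1 -0.43 and that of Eif5a kept its sign, while 0 factor genes passed limma.

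The wider translation apparatus was read through 5 lists of genes outside the family, in which 0 genes passed limma in either direction. Among 17 tested genes of mTORC1 and cap-binding control, 1 was higher and 1 lower at an unadjusted p under 0.05. Rptor, the scaffold raptor of mTORC1, measured 1.166, 1.04, 1.43 and 0.945 FPKM in AAV-FGF17 samples and 2.05, 1.58, 2.33 and 1.81 FPKM in controls. All AAV-FGF17 samples lay below all controls, control samples 1 and 4 included, as in 4.64% of all tested genes (limma adjusted p = 0.495). Ddit4, an inhibitor of mTORC1 upstream, measured 20.8, 30.3, 16.7 and 20.7 FPKM in AAV-FGF17 samples and 16.3, 8.81, 17.4 and 17.4 FPKM in controls, with AAV-FGF17 sample 3 among the controls.

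Of 10 tested mitochondrial translation factors, 4 lay above the median gene and 6 below. Gfm2, which recycles mitochondrial ribosomes, stood at 5.43 ± 0.366 FPKM in AAV-FGF17 samples and 6.94 ± 0.958 FPKM in controls, and Mtif3, a mitochondrial initiation factor, at 3.27 ± 0.0889 FPKM in AAV-FGF17 samples and 4.20 ± 0.902 FPKM in controls. In both genes the 4 AAV-FGF17 samples lay below the 4 controls, as in 4.64% of all tested genes. The gaps were narrow, from 5.92 to 5.93 FPKM for Gfm2 and from 3.35 to 3.46 FPKM for Mtif3. Whether these groups stayed apart under other scalings was not tested. Of 13 tested termination, recycling and poly(A)-binding genes, Mcts2, related to a recycling factor, stood at 8.33 ± 1.27 FPKM in AAV-FGF17 samples and 6.06 ± 0.991 FPKM in controls. Its groups did not overlap, as in 0.998% of all tested genes in that direction. Pabpc4, a poly(A)-binding protein, stood at 71.7 ± 6.07 FPKM in AAV-FGF17 samples and 93.7 ± 23.2 FPKM in controls.

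Of 7 tested hypusine and diphthamide enzymes, which modify eIF5A and eEF2, Dohh, the hydroxylase that completes hypusine, measured 8.14, 7.73, 9.93 and 9.81 FPKM in AAV-FGF17 samples and 9.89, 14.8, 22.5 and 8.77 FPKM in controls. Control samples 2 and 3 lay far above the rest, as for Eif5a. Dph3, of the diphthamide pathway, stood at 5.71 ± 0.427 FPKM in AAV-FGF17 samples and 6.67 ± 1.29 FPKM in controls. Of 10 tested genes of the integrated stress response, which follows phosphorylation of eIF2, 3 lay above the median gene and 7 below. Nupr1, a stress-induced chromatin protein, stood at 5.44 ± 0.921 FPKM in AAV-FGF17 samples and 6.996 ± 1.24 FPKM in controls and Ppp1r15a, the inducible subunit of the phosphatase for eIF2, at 6.55 ± 1.21 FPKM in AAV-FGF17 samples and 8.62 ± 2.88 FPKM in controls.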

How the data were processed

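RNA was sequenced from 8 heart samples of mice, 4 per group. Per the submitters' processing notes, FastQC 0.11.7, cutadapt 1.17, HISAT2 2.1.0, StringTie 1.3.3 and GRCm38 were named, with no order or settings. The authors deposited FPKM values for 11704 protein-coding genes in each library, as the file headers name them. There were 0 columns of per-sample values left unassigned. No counts were used and the depth is unknown: in 531 single-transcript genes, whole-read steps exceeded those of jittered values by over 0.05 in 0 of 8 libraries.

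The test was limma 3.58.1 (R 4.3.3; trended prior variance, no covariates, Benjamini-Hochberg threshold 0.05) on log2(FPKM + 1), a scale that understates changes of low genes. Genes averaging under 1 FPKM were left out. Changes are given relative to the median gene, while p-values test the change as fitted against 0. The labels do not say that samples are separate animals, so p-values measure the spread between samples. The fit was tested on simulated data with independent noise in each gene and sample. No deviation shared by many genes of a sample was simulated, so that test does not cover the split of control samples 2 and 3. Alternatives changed the scaling, pseudocount, filter, samples, replicate block, library weights and GC adjustment, the last added after seeing the data. Transcript number, length and GC content came from GENCODE M21, whose coordinates equal those deposited for 54 of the 63 genes. The members and lists were chosen with earlier results of these data known. Named genes are the most abundant, the 3 of smallest p and the highest and lowest change in each complex, plus all genes of eIF2B, the kinases, the eIF4E-binding proteins, eIF5A, eEF1 and eEF2, and the 2 of smallest p in each other list. Further genes named were chosen after their values were seen.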

Additional observations from a re-analysis of the deposited data

Results flagged for a closer look

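In 6 of 126 groups of 4 samples, 1 sample of a factor gene stood apart from the other 3 by Dixon's criterion, and chance flags about 1 in 20 groups, or 6.3 here. AAV-FGF17 sample 3 was apart for Eif5, at 25.9 FPKM against 13.02 to 15.2 FPKM in the other 3, and for Eif3m, at 27.4 FPKM against 25.1 to 25.5. AAV-FGF17 sample 4 was apart for Eif5b, at 57.2 FPKM against 43.3 to 44.5, and AAV-FGF17 sample 1 for Eef1d, at 18.7 FPKM against 17.1. Control sample 3 was apart for Eif3j2, listed at 0 against 4.21 to 5.05 FPKM, and for Eif1ad, at 9.41 FPKM against 6.99 to 7.25.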

How the results depend on the processing

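Over 17 alternatives, 0 of the 472 combinations of 28 followed factor genes with a setting passed an adjusted p of 0.05 in limma. Among all genes, 6 passed without control samples 2 and 3 together, 5 with array quality weights and 0 to 4 when 1 sample was left out. Factor genes at an unadjusted p under 0.05 numbered 5 higher and 3 lower with median-of-ratios scaling (4.28% and 4.06% of all tested genes). After rescaling without mitochondrial genes 3 were higher and 3 lower (4.61% and 3.18%), and after GC adjustment 3 and 2 (4.49% and 3.66%). With array weights 1 was higher and 1 lower (2.37% and 5.17%), as without control samples 2 and 3 (2.24% and 2.39%). With 1 sample left out, 0 to 1 factor genes were higher (0.818% to 2.23%) and 1 to 11 lower. The 11 came without control sample 1 and 8 without control sample 4, where 14.7% and 14.9% of all tested genes were lower, against 3.22% to 7.91% without any other sample. Factor genes wholly above the controls numbered 3 with median-of-ratios scaling (2.77% of all tested genes), 3 after rescaling (2.6%) and 2 after GC adjustment (2.52%). They numbered 7 without control samples 2 and 3 (6.33%) and 0 to 2 with 1 sample left out (1.38% to 2.38%). Those wholly below numbered, in the same order, 2 (2.56%), 2 (2.13%), 2 (2.33%), 4 (9.39%) and 3 to 4 (5.23% to 9.78%). The median change of the factor genes without control samples 2 and 3 was 0.086. Same-numbered deviations of the 2 groups correlated at -0.109 to 0.022, and the labels do not say whether replicate numbers pair the samples. The fit with the replicate block called 0 factor genes and left 3 lower at an unadjusted p under 0.05.

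Log2 changes turned sign without control samples 2 and 3 for Eif2b5 (0.067), Eif2ak1 (-0.059), Eif2ak3 (0.14), Eif3b (0.032), Eif3k (0.042), Eif5a (0.13), Eef1g (0.10), Eef2 (0.12), Eef2k (0.086), Eef1akmt1 (0.18) and Eif4a3 (0.069). With array weights they turned for Eif2ak1 (-0.042), Eif2ak3 (0.12), Eif5a (0.024), Eef1g (0.032), Eef2 (0.10), Eef2k (0.043), Eef1akmt1 (0.093) and Eif4a3 (0.022), and with GC adjustment for Eif2ak3 (0.020) and Eif4a3 (0.011). With 1 sample left out, ranges crossed zero for Eif2ak1 (-0.020 to 0.13), Eif2ak3 (-0.10 to 0.069), Eef1akmt1 (-0.13 to 0.068) and Eif4a3 (-0.15 to 0.0033). Beyond the loss of samples itself, the cause was not tested. The median 95% half-width of a log2 change was 0.334, and the depth is unknown.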
